A study of Sus scrofa with 9 samples.

Results

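The genes that white adipocytes use to store and release fat and to signal to other tissues were followed through 9 RNA-seq libraries of the pig aorta. They were ADIPOQ, LEP, PLIN1, PLIN4, FABP4, LIPE, CIDEC, PPARG, LPL and CFD, which make 10 of the 21357 genes in the deposited table. They were selected by gene name, and of several rows with 1 name the one with the highest mean FPKM was to be kept. Each name had a single row, so no measured value decided between rows. The names themselves were put together with earlier results of these data known, so the folds and p-values below describe these libraries and are not independent evidence. FPKM counts the fragments mapped per kilobase of transcript, scaled to a common library size, and is thus a level corrected for gene length and depth.

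The libraries came from abdominal aortas of Tibetan minipigs, a small pig breed, with 3 libraries in each of 3 groups. NC pigs, the normal controls, ate a normal diet for 24 weeks. H8 pigs ate the high-fat diet for 8 weeks and are labelled hypercholesterolemia, while H24 pigs ate it for 24 weeks and are labelled atherosclerosis. All groups share the strain, carry no transgene and got no drug. The methods of the study describe the NC and the 24-week pigs as young males bought for the work and their high-fat/cholesterol diet as basal feed with shortening, cholesterol and egg yolk powder. They do not describe the H8 pigs, and the labels give no age or sex. There was no normal-diet group at 8 weeks, so between H8 and NC the diet and the length of the experiment cannot be told apart. Between H24 and H8, both on the high-fat diet, time on the diet and the age of the pigs cannot be told apart.

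White adipocytes keep triglyceride in 1 large droplet coated with perilipins, take up fatty acids that lipoprotein lipase frees from circulating lipoproteins, and release them again through lipases. They also secrete hormones, among them adiponectin and leptin. Fat surrounds most large arteries, the abdominal aorta included, and its adipocytes act on the vessel wall through such secreted factors. Some of the same genes are used outside fat. Foam cells and other macrophages in plaques can express LPL, PPARG and FABP4, and capillary endothelium expresses FABP4.

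The label of the tissue was checked against markers. Smooth muscle genes had the highest sum of the marker lists in every library except H24 replicate 3. The summed level of 10 markers ran from 1832.8 FPKM in H24 replicate 3 to 14616.9 FPKM in NC replicate 1. In H24 replicate 3, 8 fibroblast markers summed to 3418.9 FPKM and the macrophage markers to 1710 FPKM. All 10 adipocyte genes were detected in NC, with group means from 0.122 FPKM for LEP to 92.8 FPKM for FABP4. Detection alone does not show which cells their reads came from. Markers of mesothelium, the lining of the abdominal fat and organs, summed to 0.671 FPKM or less in every library, and those of skeletal muscle to 2.46 FPKM or less. Only 4 of the 6 listed mesothelium markers were found, 2 of them at 0 in every library. Neither the labels nor the methods say whether the fat around the vessel was removed before the RNA was extracted, and the extraction protocol in the labels speaks of an adipose type. In bulk tissue, fewer adipocytes and less RNA per adipocyte cannot be told apart. Total counts ran from 44094263 in H24 replicate 2 to 75787978 in NC replicate 2, so that 3 counts, taken as the smallest signal, stood for 0.0396 to 0.0680 CPM, the count scaled to a common library size. Taken over genes, which do not count as replicates, Pearson's r between the log2 CPM of libraries of a group was 0.960 to 0.964 in NC, 0.935 to 0.963 in H8 and 0.830 to 0.939 in H24, where replicate 3 stood apart from the other two. The floor of 3 counts covers counting error only.

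The 10 genes did not move as a block. ADIPOQ, PLIN1, LIPE and CIDEC were down-regulated in H8/NC, most of all ADIPOQ and PLIN1, which were close to absent from all 3 H8 libraries. In H24 these same genes differed between pigs, and ADIPOQ, PLIN1 and LIPE stood within the NC range in replicate 1 while they were lower in replicates 2 and 3. LEP, PPARG, LPL and CFD were up-regulated in H24/NC. FABP4 passed the test in no comparison, and neither did PLIN4, whose H8 and H24 values all lay under the NC values and whose H24/NC difference passed in 9 of 17 alternatives.

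**Figure D1:**
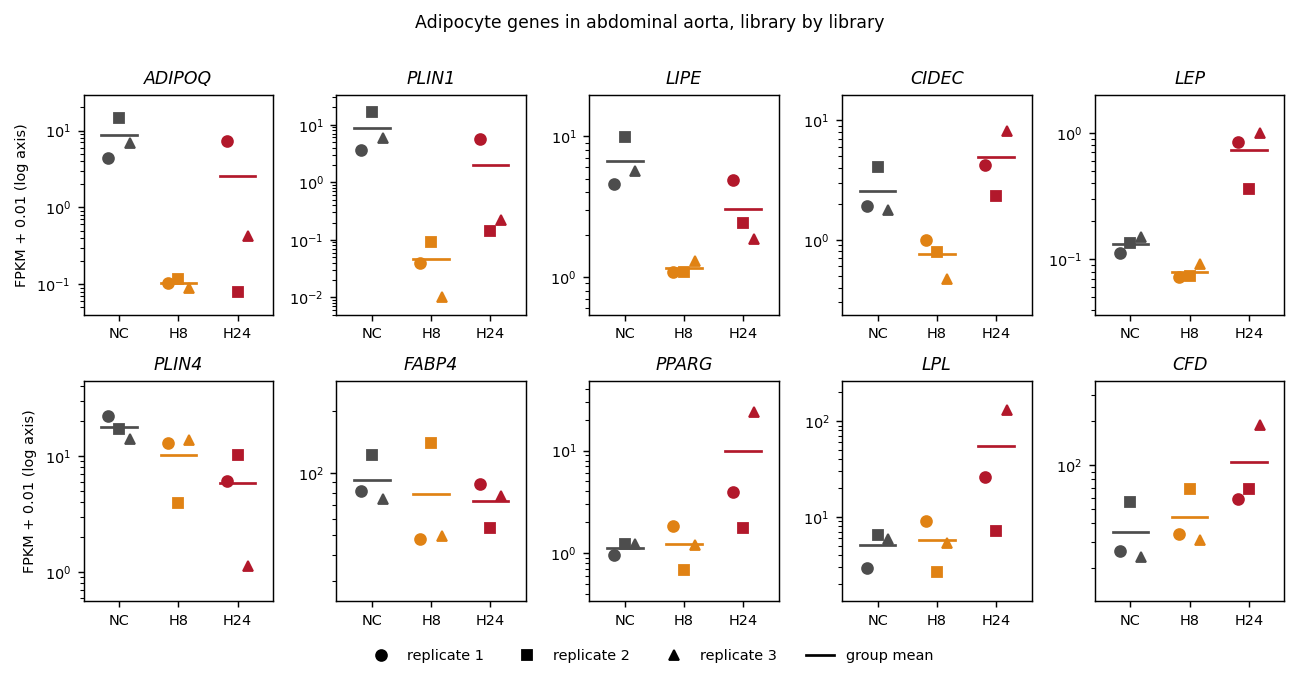
FPKM of each of the 10 genes in each of the 9 libraries, on a log axis of FPKM + 0.01, with the NC, H8 and H24 libraries side by side, 1 symbol per replicate number and a line at each group mean. ADIPOQ and PLIN1 drop to about 0.1 FPKM or less in all 3 H8 libraries and in H24 spread from the NC level to near the H8 level, while PPARG and LPL peak in H24 replicate 3.

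Counts of genes below rest on edgeR's quasi-likelihood test over all tested genes. A gene was up- or down-regulated where its log2 fold change was beyond 1 in size with an unadjusted p under 0.05, the thresholds of the study. In H8/NC, 4 of the 9 tested members were down-regulated against 2.27% of all 14336 tested genes, and none was up-regulated against 5.11%. LEP was too low to be tested there. In H24/NC, 4 of 10 were up-regulated against 9.95% of 14828 tested genes, and 1 was down-regulated against 1.52%. In H24/H8, 7 of 10 were up-regulated against 7.22% of 14788 tested genes, and none was down-regulated against 3.05%. The H24/NC count of 5 in all was 3 without NC replicate 3. The H24/H8 count was 3 without H8 replicate 3 and 4 without H8 replicate 1, H8 replicate 2 or H24 replicate 1. The median log2 fold change of the tested members was -0.69, 0.26 and 2.66 in the 3 comparisons, beside 0.01, 0.01 and 0.04 over all tested genes. H24/NC and H8/NC share the NC libraries, and H24/H8 shares libraries with both.

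After Benjamini-Hochberg adjustment over all tested genes, ADIPOQ in H8/NC was the only member past 0.05, as were 0.014% of all tested genes in that direction. No member passed it in H24/NC, where edgeR called 0% of all genes in this way, or in H24/H8, where it called 0.0135%. These counts moved with the tool, since DESeq2 put 4 members past the adjusted threshold in H8/NC (ADIPOQ, PLIN1, LIPE and CIDEC), 3 in H24/NC (LEP, LPL and PPARG) and 5 in H24/H8 (ADIPOQ, CIDEC, LEP, LPL and PPARG). Over all genes, DESeq2 put 616, 954 and 650 past it. Without H24 replicate 3, edgeR put 306 past it in H24/NC. By levels alone, 6 of the 10 members, LEP included, had H8 values that all lay under the NC values, against 15.9% of all tested genes. LEP, which was not tested there, counts among the 6 but not in that share. None had values that all lay above, against 6.91%. In H24/NC, 4 members lay wholly above, against 12.8%, and 1 wholly below, against 7.8%. In H24/H8, 4 lay wholly above, against 15.5%, and none wholly below, against 6.31%.

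**Figure D2:**
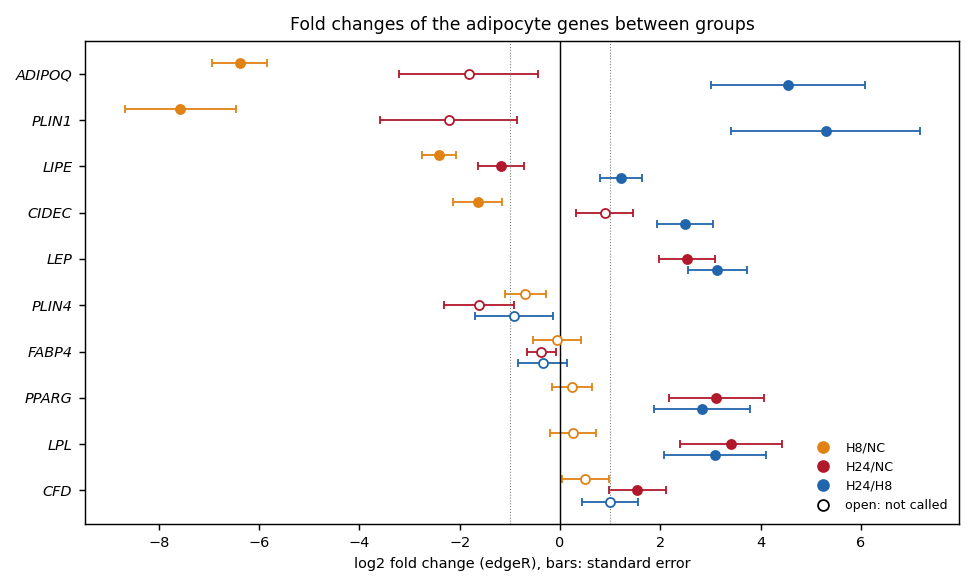
Log2 fold change of each member in H8/NC, H24/NC and H24/H8 from edgeR, with its standard error as a bar, filled points marking genes past the unadjusted thresholds. The 4 filled points of H8/NC lie at -1.64 or lower and the 7 of H24/H8 at 1.22 or higher.

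Of the secreted factors, ADIPOQ (chromosome 13, 124633684 to 124648055, plus strand, Sscrofa11.1) encodes adiponectin, a hormone made almost only by adipocytes. Its level was 4.44, 14.6 and 6.83 FPKM in NC replicates 1 to 3 and 0.0954, 0.106 and 0.0789 FPKM in H8. In H24 it was 7.24 FPKM in replicate 1, 0.0705 FPKM in replicate 2 and 0.416 FPKM in replicate 3. All H8 libraries therefore lay far under all NC libraries, and the H24 libraries reached from the second highest of the 9 to the lowest. The low values were still measured reads, with 38 to 46 counts in H8 and 20 in H24 replicate 2. ADIPOQ fell by 6.39 on the log2 scale in H8/NC (SE 0.55, adjusted p = 0.0206 in edgeR). Its adjusted p ran from 1.76e-38 to 0.398 over 17 alternatives, under 0.05 in 12 of them. By the unadjusted thresholds the call held without any 1 library, at -6.71 to -5.74. In H24/NC the log2 fold change was -1.82 (SE 1.39, adjusted p = 0.604 in edgeR), and without H24 replicate 1 it was -5.14 and past the unadjusted thresholds. In H24/H8 ADIPOQ was up-regulated by 4.55 (SE 1.54, adjusted p = 0.341 in edgeR). That call was lost without H24 replicate 1, with a log2 fold change of 1.17, and without any single H8 replicate, with values from 4.40 to 4.72.

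LEP (chromosome 18, 20106179 to 20123451, minus strand) encodes leptin, the hormone by which fat signals its stores to the brain. It was the lowest of the 10 genes in NC, with 0.102, 0.125 and 0.140 FPKM, and stood at 0.0628, 0.0633 and 0.0825 FPKM in H8. In H24 it was 0.831, 0.351 and 0.990 FPKM, from 66 to 253 counts, against 28 to 40 counts in NC and 18 to 27 in H8. The 3 groups did not overlap, with H8 lowest and H24 highest. LEP was up-regulated in H24/NC by 2.53 (SE 0.56, adjusted p = 0.132 in edgeR) and in H24/H8 by 3.14 (SE 0.59, adjusted p = 0.336 in edgeR). In H8/NC its mean was below the filter of 0.1 FPKM, and a fit without that filter gave a log2 fold change of -0.64 (SE 0.67, unadjusted p = 0.364 in edgeR). Unlike the H24/H8 call of ADIPOQ, both calls of LEP held when any 1 library was left out. Their log2 fold changes then ran from 2.23 to 2.85 in H24/NC and from 2.85 to 3.44 in H24/H8. With limma on log2(FPKM + 1), where the pseudocount exceeds every NC and H8 level, both fell short of the fold threshold, at 0.60 and 0.67.

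CFD (chromosome 2, 77509860 to 77512207, minus strand) encodes adipsin, the complement factor D that fat secretes and that macrophages make as well. It measured 25.8, 55.6 and 23.8 FPKM in NC, 34.1, 68.4 and 31.0 FPKM in H8, and 58.3, 68.6 and 186 FPKM in H24. All H24 values were above all NC values, but H8 replicate 2 lay between H24 replicates 1 and 2. CFD was up-regulated in H24/NC by 1.54 (SE 0.56, adjusted p = 0.304 in edgeR). The call was lost without H24 replicate 3, with 0.82, without NC replicate 1, with 1.35, and without NC replicate 3, with 1.31. In H8/NC the log2 fold change was 0.50 (SE 0.46) and in H24/H8 1.0 (SE 0.55), neither past the test. Without H8 replicate 2 the latter was 1.54 and past the unadjusted thresholds. The whole gene lies within MED16 on the other strand and also within ELANE on its own strand. MED16 ranged from 2.80 to 5.51 FPKM and ELANE from 0.0642 to 0.931 FPKM. Since the strand of the library is not stated, reads shared with MED16 cannot be told apart, and strand cannot part those shared with ELANE.

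Of the droplet proteins, PLIN1 (chromosome 7, 55237349 to 55251510, minus strand) encodes perilipin 1, the coat protein of the adipocyte droplet that holds lipases off until the cell is stimulated. It measured 3.59, 16.5 and 5.91 FPKM in NC and 0.0289, 0.0823 and 0 FPKM in H8, from 5, 12 and 0 counts. The 0 in H8 replicate 3 allows up to 3 counts, or 0.0397 CPM. In H24 it was 5.58 FPKM in replicate 1, 0.134 FPKM in replicate 2 and 0.213 FPKM in replicate 3. The libraries thus fell as those of ADIPOQ did, with all of H8 under all of NC and only H24 replicate 1 at the NC level. PLIN1 fell by 7.57 on the log2 scale in H8/NC (SE 1.11, adjusted p = 0.0906 in edgeR). In H24/NC the log2 fold change was -2.22 (SE 1.37, adjusted p = 0.529 in edgeR), and -5.62, past the unadjusted thresholds, without H24 replicate 1. In H24/H8 PLIN1 was up-regulated by 5.29 (SE 1.88, adjusted p = 0.341 in edgeR). Without H8 replicate 1 or 3 that call was lost, at 5.17 and 4.69, and without H24 replicate 1 the gene was under the filter.

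CIDEC (chromosome 13, 66141206 to 66149851, minus strand) encodes a protein that joins small droplets into a large one. Its levels were 1.90, 4.06 and 1.76 FPKM in NC, 0.994, 0.783 and 0.464 FPKM in H8, and 4.19, 2.31 and 8.15 FPKM in H24. The H8 libraries were the lowest 3 of the 9, and H24 replicates 3 and 1 the highest. CIDEC fell by 1.64 on the log2 scale in H8/NC (SE 0.49, adjusted p = 0.232 in edgeR) and was up-regulated by 2.49 in H24/H8 (SE 0.56, adjusted p = 0.336 in edgeR). Both calls held without any 1 library. In H24/NC the log2 fold change was 0.89 (SE 0.57, adjusted p = 0.545 in edgeR), with overlapping groups. H24 replicates 2 and 3 parted CIDEC from PLIN1: both were over 2 FPKM for CIDEC while PLIN1 was near 0.2 FPKM or less.

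PLIN4 (chromosome 2, 74318628 to 74331930, plus strand) encodes perilipin 4, which coats small new droplets and is found in adipocytes and muscle. It measured 22.2, 17.2 and 13.9 FPKM in NC, 13.0, 3.93 and 13.8 FPKM in H8, and 6.15, 10.3 and 1.12 FPKM in H24. Each NC library was above every other library, although NC replicate 3 and H8 replicate 3 were nearly level. The log2 fold change was -0.69 in H8/NC (SE 0.41) and -1.62 in H24/NC (SE 0.70, adjusted p = 0.369 in edgeR), neither past the test. The latter had an unadjusted p of 0.0527 in edgeR's fit across all genes and lay close to the threshold. It passed the unadjusted thresholds in 9 of 17 alternatives, DESeq2 and all 3 limma fits among them, and also without H24 replicate 3, at -1.12, or H24 replicate 2, at -2.35. In H24/H8 it was -0.92 (SE 0.78). The gene overlaps HDGFL2 on the other strand by 22 bases.

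Of the enzymes and carriers, LIPE (chromosome 6, 49542875 to 49560135, plus strand) encodes hormone-sensitive lipase, which splits stored fat. It measured 4.54, 9.83 and 5.60 FPKM in NC, 1.08, 1.07 and 1.29 FPKM in H8, and 4.83, 2.42 and 1.84 FPKM in H24. The groups NC and H8 were apart, and H24 replicate 1 again lay within NC while replicates 2 and 3 lay between the 2 groups. LIPE fell by 2.41 on the log2 scale in H8/NC (SE 0.33, adjusted p = 0.0808 in edgeR), a call that held without any 1 library. In H24/NC it fell by 1.18 (SE 0.46, adjusted p = 0.329 in edgeR), and in H24/H8 it was up-regulated by 1.22 (SE 0.41, adjusted p = 0.341 in edgeR). The H24/NC call was lost without NC replicate 2, NC replicate 3, H24 replicate 2 or H24 replicate 3, with values from -1.30 to -0.75. The H24/H8 call was lost without H8 replicate 1, at 1.16, H8 replicate 2, at 1.23, or H24 replicate 1, at 0.74. LIPE overlaps 2 unnamed genes on the other strand, one of them at up to 2.66 FPKM.

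LPL (chromosome 14, 4104769 to 4136593, plus strand) encodes lipoprotein lipase, which frees fatty acids from circulating triglyceride and is made by adipocytes, muscle and macrophages. It measured 2.91, 6.49 and 5.89 FPKM in NC, 9.06, 2.63 and 5.28 FPKM in H8, and 26.2, 7.13 and 131 FPKM in H24. The H24 libraries were all above NC, with replicate 3 far above the others, and NC and H8 overlapped. LPL was up-regulated by 3.40 in H24/NC (SE 1.02, adjusted p = 0.222 in edgeR) and by 3.09 in H24/H8 (SE 1.01, adjusted p = 0.341 in edgeR). Without H24 replicate 3 the first value was 1.65 and still past the unadjusted thresholds. The H24/H8 call was lost without H24 replicate 3, at 1.38, without H8 replicate 2, at 2.78, and without H8 replicate 3, at 3.02. In H8/NC the log2 fold change was 0.25 (SE 0.46), and its sign turned without NC replicate 1 or H8 replicate 1.

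FABP4 (chromosome 4, 55096228 to 55101209, plus strand) encodes the fatty acid carrier of the adipocyte cytoplasm, which macrophages and capillary endothelium also contain. It was the highest of the 10 genes in NC and H8, with 81.5, 122 and 75.1 FPKM in NC, 47.9, 139 and 49.6 FPKM in H8, and 88.2, 54.3 and 77.2 FPKM in H24. The groups overlapped in every comparison, and the whole range over 9 libraries was 2.91-fold, the narrowest of the members that were above 0 in every library. Its log2 fold changes were -0.06 (SE 0.48), -0.38 (SE 0.29) and -0.35 (SE 0.50) in H8/NC, H24/NC and H24/H8, and the first and the last changed sign with single libraries left out. FABP4 therefore did not share the near absence of ADIPOQ and PLIN1 from the H8 libraries.

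PPARG (chromosome 13, 68301566 to 68433963, plus strand) encodes the nuclear receptor that drives adipocyte differentiation and is also active in macrophages. It measured 0.948, 1.21 and 1.20 FPKM in NC, 1.81, 0.667 and 1.18 FPKM in H8, and 3.96, 1.73 and 24.0 FPKM in H24. As for LPL, H24 lay wholly above NC and replicate 3 stood far above the others. PPARG was up-regulated by 3.12 in H24/NC (SE 0.94, adjusted p = 0.227 in edgeR) and by 2.83 in H24/H8 (SE 0.95, adjusted p = 0.341 in edgeR). Without H24 replicate 3 the first was 1.31 and still past the unadjusted thresholds. The H24/H8 call was lost without H24 replicate 3, at 1.05, without H8 replicate 2, at 2.56, and without H8 replicate 3, at 2.77. In H8/NC the log2 fold change was 0.24 (SE 0.40).

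The members were listed in 2 sets, 6 that mark mainly adipocytes (ADIPOQ, LEP, PLIN1, PLIN4, LIPE and CIDEC) and 4 that macrophages or other cells share (FABP4, PPARG, LPL and CFD). PLIN4 is not clear-cut among the 6, since muscle expresses it too. LEP and CIDEC also departed from the others, being highest in H24 replicate 3 (0.990 and 8.15 FPKM). There ADIPOQ was at 0.416 FPKM and PLIN1 at 0.213 FPKM. The geometric mean of FPKM + 0.1, less 0.1, over the 6 was 2.88, 5.73 and 3.28 in NC and 0.541, 0.443 and 0.474 in H8. In H24 it was 4.05 in replicate 1, 0.922 in replicate 2 and 1.13 in replicate 3. All H8 libraries lay under all others, and only H24 replicate 1 reached the NC range. Both still held over 5 genes with PLIN4 left out, an alternative added after the data were examined, with 0.203 to 0.263 in H8 against 0.542 or more elsewhere. A mean without LEP and CIDEC was not computed, so whether both would hold without these genes was not tested. Over the 4 shared genes it was 8.94, 15.5 and 10.8 in NC, 12.9, 11.8 and 10.1 in H8, and 27.2, 14.8 and 82.0 in H24. There NC and H8 overlapped, and H24 replicate 3 was the highest library.

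Variation within groups differed between genes. The SD of ADIPOQ was 0.0136 FPKM around a mean of 0.0934 FPKM in H8 (n = 3), a coefficient of variation of 14.6%, whereas in H24 it was 4.04 around 2.58 FPKM, or 157%. LPL went from 5.10 ± 1.91 FPKM in NC to 54.9 ± 66.9 FPKM in H24 and PPARG from 1.12 ± 0.147 to 9.88 ± 12.2 FPKM (SD, n = 3 each). LPL and PPARG had the same order of all 9 libraries, from H24 replicate 3 at the top to H8 replicate 2 at the bottom. FABP4 stood at 92.8 ± 25.3, 78.9 ± 52.3 and 73.3 ± 17.3 FPKM in NC, H8 and H24 (SD, n = 3 each), above 97.1% or more of the genes of a library on average. By the same measure ADIPOQ went from above 76.2% of genes in NC to above 33.9% in H8, and PLIN1 from 74.7% to 21.5%.

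Macrophage genes moved with some of these results. The 12 markers fixed for macrophages summed to 27.6, 22.8 and 25.4 FPKM in NC, 148, 26.9 and 82.6 FPKM in H8, and 253, 160 and 1710 FPKM in H24. Of them, 7 of 10 tested were up-regulated in H8/NC, 12 of 12 in H24/NC and 10 of 12 in H24/H8. Over all tested genes the shares were 5.11%, 9.95% and 7.22%. CD68 stood at 4.10 to 6.23 FPKM in NC and at 65.3, 38.7 and 616 FPKM in H24. MARCO was listed at 0 in all 3 NC libraries. LPL and PPARG had the order of the macrophage sum within H8 and within H24, but not within NC. LEP and CIDEC had that order within H24 only, and no other member had it within any group. Smooth muscle was lowest in H24 replicate 3, where its summed level was 1832.8 FPKM against 8563.8 and 12393.8 FPKM in replicates 1 and 2. PLIN4 had the order of the smooth muscle sum within H8 and within H24, but not within NC, and LIPE had it within H8 only. Lymphocyte markers summed to 6.10 to 7.55 FPKM in NC, 2.85 to 5.36 in H8 and 14.3 to 27.0 FPKM in H24. The part of these cells in the results was not tested.

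**Figure D3:**
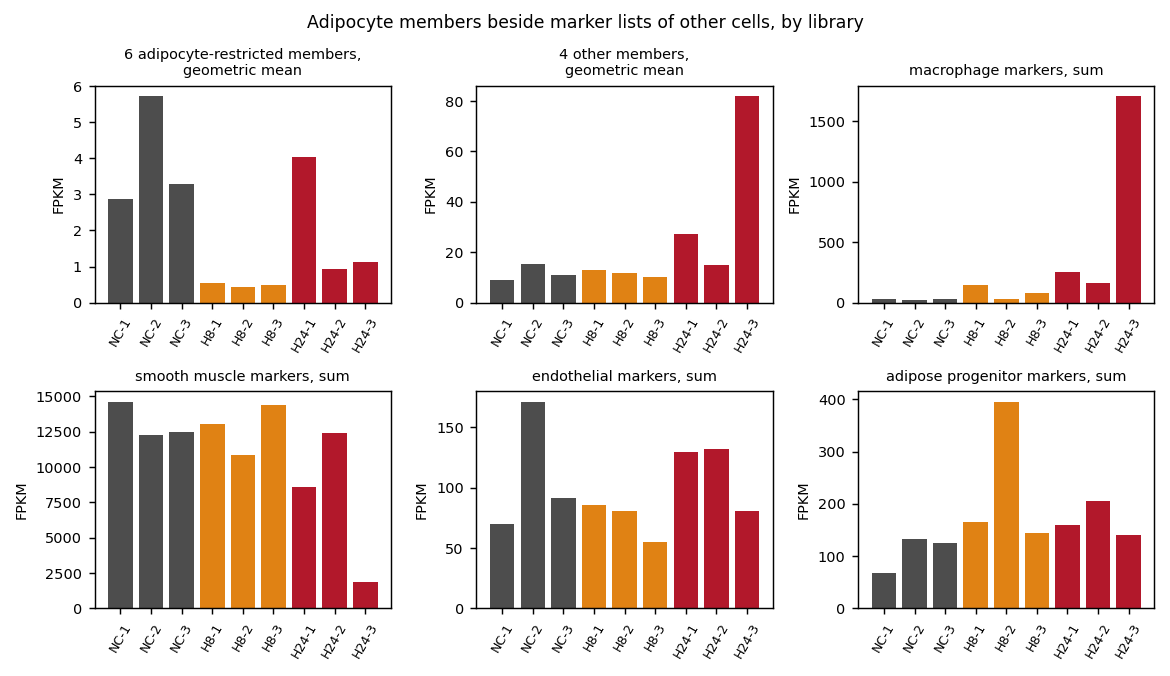
Each library's geometric mean of FPKM over the 6 adipocyte-restricted and the 4 shared members, beside the summed FPKM of macrophage, smooth muscle, endothelial and adipose progenitor markers, as bars on linear axes from 0, 1 bar a library. The restricted members are lowest in the 3 H8 libraries (0.443 to 0.541), and the macrophage sum is highest in H24 replicate 3 (1710 FPKM).

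From 6 lists, 68 further adipocyte genes were looked up in the same fits, and 64 of them are in the table. In H8/NC, 1 of 56 tested was up-regulated (1.79%, against 5.11% of all tested genes). In the same comparison 4 were down-regulated (7.14%, against 2.27%). They were DGAT2, the last enzyme of triglyceride synthesis, THRSP, a fat synthesis factor, TRARG1, a partner of glucose transporter traffic, and ADIG, a small adipocyte protein. DGAT2 measured 4.46, 19.4 and 17.4 FPKM in NC, 0.665, 0.613 and 0.340 FPKM in H8, and 9.15, 0.653 and 0.926 FPKM in H24. It fell by 4.52 on the log2 scale in H8/NC (SE 0.64, adjusted p = 0.0839 in edgeR). TRARG1 measured 1.56, 2.45 and 1.33 FPKM in NC, 0.143, 0.0721 and 0.0290 FPKM in H8, and 1.65, 0.0727 and 0 FPKM in H24, and fell by 4.30 in H8/NC (SE 0.61). THRSP fell by 5.57 (SE 1.24), from 0.554 to 3.93 FPKM in NC to 0.0907 FPKM or less in H8, and measured 1.90, 0 and 0.332 FPKM in H24. ADIG, named after its values were seen, measured 0.111, 1.92 and 0.434 FPKM in NC. It was at 0 in all H8 libraries and in H24 replicate 2, and at 0.955 and 0.223 FPKM in H24 replicates 1 and 3. For ADIG, H24 replicate 3 thus also lay within the NC range. In these 4 genes too, H24 replicate 1 lay within the NC range, as it did for ADIPOQ, PLIN1 and LIPE.

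Most other genes of fat storage did not pass the test. Among the 11 tested genes for droplets and lipolysis, none passed the test in any comparison. The most abundant of them were MGLL, monoglyceride lipase, at 53.3 to 169 FPKM over the 9 libraries, and PNPLA2, the first lipase of the lipolytic chain, at 49.3 to 132 FPKM. Both are used by many cell types. Of triglyceride synthesis genes, 1 of 7 was down-regulated in H8/NC, 1 of 8 in H24/NC and 1 of 8 in H24/H8, where 2 were up-regulated. Of 9 fatty acid synthesis genes, 1 was down-regulated in H8/NC and 1, SCD, was up-regulated in H24/NC and in H24/H8. SCD, the desaturase that makes oleate, measured 9.89, 6.57 and 9.34 FPKM in NC and 36.2, 13.4 and 185 FPKM in H24, where it was up-regulated by 3.17 over NC (SE 0.92). For fat uptake and insulin response, 2 of 10 were down-regulated in H8/NC, none passed the test in H24/NC, and 1 of 9 was up-regulated in H24/H8. Over all tested genes, 2.27%, 1.52% and 3.05% were down-regulated in H8/NC, H24/NC and H24/H8, and 5.11%, 9.95% and 7.22% up-regulated. The median log2 fold change of all 56 was -0.01 in H8/NC and -0.09 in H24/NC, and that of the 55 tested in H24/H8 was 0.07.

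A few adipogenic factors and receptors that macrophages also use were up-regulated in H24. CEBPA, a partner of PPARG in adipocyte and myeloid cells, was up-regulated by 4.26 in H24/NC (SE 0.92) and by 2.43 in H8/NC (SE 0.78), and measured 0.214 to 0.667 FPKM in NC and 2.71, 3.28 and 15.5 FPKM in H24. NR1H3, the oxysterol receptor LXR alpha, was up-regulated by 3.06 in H24/NC (SE 0.90) and by 3.32 in H24/H8 (SE 1.02). CMKLR1, the receptor of the adipokine chemerin, was up-regulated by 1.35 in H24/NC (SE 0.33) and was also up-regulated in H24/H8. These were 2 of the 10 tested adipogenic factors and 1 of the 8 tested adipokines and receptors in H24/NC. Over the 6 adipocyte lists, 4 of 56 tested genes were up-regulated there (7.14%), against 9.95% of all tested genes. CEBPB and CEBPD, early adipogenic factors and also stress-response genes, fell by 1.04 and 1.12 in H24/H8 (SE 0.32 and 0.47). Among the 6 tested brown and beige adipocyte genes, only P2RX5 passed the test. It fell by 1.80 in H8/NC (SE 0.49) and was up-regulated by 1.38 in H24/H8 (SE 0.44). The list did not move with it. Of the 6 genes, 4 had a log2 fold change above 0 in H8/NC and 2 in H24/H8, with medians of 0.08 and -0.48. UCP1, also listed, was not found.

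**Figure D4:**
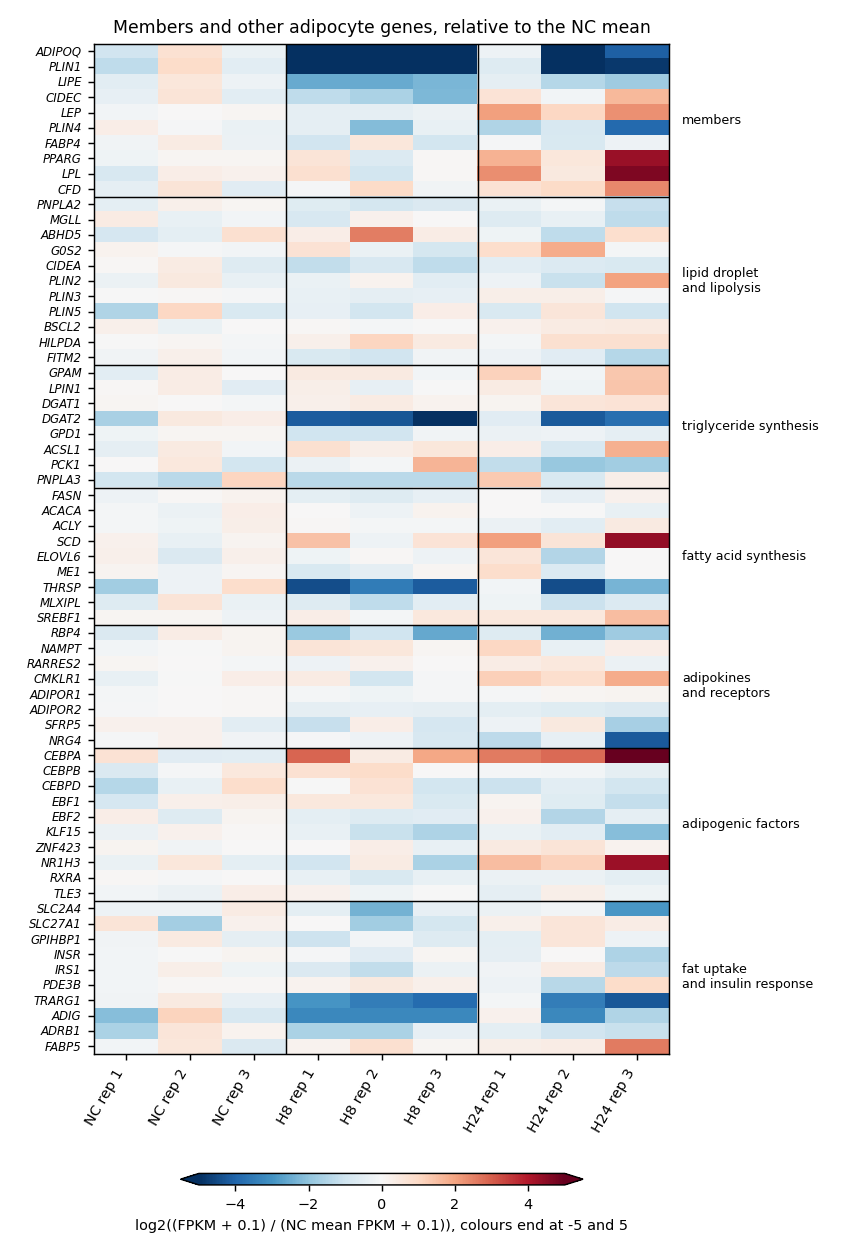
Log2 of FPKM + 0.1 relative to the NC mean for the 10 members and the other adipocyte genes with a mean of at least 0.1 FPKM over the 9 libraries, by list, in the 9 libraries, with colours ending at -5 and 5. ADIPOQ, PLIN1, DGAT2, THRSP, TRARG1 and ADIG are blue in all 3 H8 libraries and pale in H24 replicate 1, while most other genes stay near the NC mean.

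Genes of adipose progenitors, the fibroblast-like cells from which adipocytes form, were not down-regulated in any comparison. Of 7 tested, 3 were up-regulated in H8/NC, 3 in H24/NC and none in H24/H8, against 5.11%, 9.95% and 7.22% of all tested genes. PI16 was 35.4, 72.1 and 75.8 FPKM in NC and 119, 288 and 108 FPKM in H8, up-regulated by 1.66 (SE 0.50), and DPP4 was up-regulated by 1.66 in H8/NC (SE 0.49) and 3.61 in H24/NC (SE 1.11). PDGFRA was up-regulated by 1.49 in H24/NC (SE 0.38). Of 8 fibroblast genes, 2 were up-regulated in H8/NC and 1 in each of the other comparisons. None of the 8 endothelial markers passed the test in any comparison, with summed levels of 69.7 to 171 FPKM in NC, 55.1 to 85.3 in H8 and 81.0 to 132 FPKM in H24. One of 10 smooth muscle genes, MYOCD, was up-regulated in H8/NC and down-regulated in H24/H8. Markers of nerve summed to 2.90 to 6.01 FPKM in NC, 4.43 to 5.11 FPKM in H8 and 4.21 to 11.07 FPKM in H24, and those of blood to 19.5 to 253 FPKM over all libraries. Of these 2 lists and those for skeletal muscle and mesothelium, 1 gene each of nerve and skeletal muscle was up-regulated in H24/NC and none passed in the other comparisons.

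The genes most like the 6 restricted members over the 9 libraries were sought among 11230 genes with a mean of at least 1 FPKM. By Pearson's r with the mean of their standardised log2(FPKM + 0.1), the closest were USP47 (r = 0.966), NFATC2IP (0.964), NOC4L (0.960), ATG2B (0.943), ATP9B (0.942), ENSSSCG00000040122 (0.937), DNAAF2 (0.934), JADE1 (0.930), PITHD1 (0.928) and SESN1 (0.925). With 9 points that share libraries and so many candidates, these values are a description. Only 3 of these 10, ATG2B, USP47 and NFATC2IP, were among the 10 closest when PLIN4 was left out of the mean. USP47, which encodes a deubiquitinase, measured 10.4, 10.5 and 11.0 FPKM in NC, 5.31, 5.48 and 5.19 FPKM in H8, and 11.6, 6.81 and 7.30 FPKM in H24. The amplitude of USP47 was small beside that of ADIPOQ, with a log2 fold change of -0.85 in H8/NC (SE 0.14).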

How the data were processed

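The authors sequenced poly(A) mRNA of RNA integrity above 7.0 as paired-end reads and, per the methods of the study, mapped it with HISAT 2.0 to Sscrofa11.1. The submitters' processing notes name HISAT2 2.0 and StringTie 1.3.0, and also Bowtie 0.12.2 and a mouse build without a role. The deposited table gives an FPKM value and an estimated count per gene and library. The estimated counts that the authors deposited are whole numbers, not normalized for depth, and how they were derived is not given in the sources used here. Library strand is not stated either.

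All 9 libraries were grouped by their labels, and none was left out. The methods give separate pigs for NC and H24, and for H8, where nothing says so, p-values may measure technical spread only. No 2 libraries agreed within sampling noise (lowest chi-square per degree of freedom 182). Counts were fitted with edgeR 4.0.16 in R 4.3.3, for 2 groups at a time, with TMM scaling, a dispersion trend and the two-sided quasi-likelihood test, over genes with a mean of at least 0.1 FPKM. Fold changes are edgeR's, on counts. Python 3.11.15, pandas 2.3.3 and matplotlib 3.10.9 were used for tables and plots. The fit was tested on simulated data.

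The members and lists were chosen with earlier results of these data known. Of 172 listed genes, 156 were matched by name, 3 by gene ID through a name table, and 13 were found in neither way, so they were not analysed here. Named were all members, from each of 17 other lists up to 4 genes of lowest p among those called with a mean of at least 0.5 FPKM, or the 2 most abundant where none was called, and the 10 genes most like the 6 restricted members. Alternatives were other scalings (median ratio and library size), other filters, DESeq2 1.42.0, limma 3.58.1 on log2 FPKM with 3 pseudocounts, all libraries in 1 fit, a replicate block, summed rows of 1 name, CPM in place of FPKM, and each replicate left out. An exact permutation test of 3 against 3 cannot go below 0.1. Promoters and proteins were not analysed here.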

Additional observations from a re-analysis of the deposited data

Results flagged for a closer look

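LEP drew attention because its levels in the diet groups lay on opposite sides of NC. Every H8 library (0.0628 to 0.0825 FPKM) was under the NC mean of 0.122 FPKM, and every H24 library (0.351 to 0.990 FPKM) was above it. In H8/NC LEP was below the filter, and a fit without the filter gave a log2 fold change of -0.64 (SE 0.67), which did not pass the test. The log2 fold change in H24/H8 was 3.14. As LEP was singled out for this arrangement, the difference between the diet groups was not tested independently of it. The H8 values rest on 18 to 27 counts a library.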

How the results depend on the processing

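The number of members past the unadjusted thresholds was 4 in H8/NC, and 3 or 4 under every alternative, with 4 whichever replicate was left out. In H24/NC it was 5 and rose to 8 with limma on log2(FPKM + 0.1) and to 8 on log2(FPKM + 0.01), where ADIPOQ, PLIN1 and PLIN4 were also down-regulated. Over all genes these 2 fits called 314 and 305 down, against 225 as reported, and 1196 and 1239 up, against 1475. The member count ranged from 3 (without NC replicate 3) to 7 (without H24 replicate 1) with single replicates left out. In H24/H8 it was 7 and fell to 2 with limma on log2(FPKM + 1), which called 694 genes over the whole table, the fewest of the alternatives that kept all libraries. Under the others of these it reached at most 8. With single replicates left out it ranged from 3 (without H8 replicate 3) to 7, and was 4 without H8 replicate 1, H8 replicate 2 or H24 replicate 1. With the replicate block it was 4 in H24/H8. The numbers were not taken as pairs, since deviations of same-numbered libraries correlated at -0.085 to 0.107 over the 3 comparisons and nothing in the labels pairs pigs. The block gave 4 in H8/NC and 4 in H24/NC, where it lost CFD and LIPE and gained PLIN4.

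The sign of FABP4 in H24/H8 turned to 0.0541, 0.0518 and 0.0544 with limma at pseudocounts of 0.1, 1 and 0.01. With single replicates left out, signs turned for FABP4 in H24/H8 (-0.63 to 0.46) and in H8/NC (-0.87 to 0.22), CFD in H8/NC (-0.0506 to 1.04), LPL in H8/NC (-0.26 to 0.56) and PPARG in H8/NC (-0.16 to 0.49), none of which was past the test. Of all members' fold changes under all alternatives, 420 kept their direction and their side of the thresholds, 39 lost a call, 19 gained one and 11 turned. The cause was not tested. DESeq2 gave no p for PLIN1 in H24/H8, and LEP is under the filter at a mean of 1 FPKM.

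Scaling by library size alone moved the median of all genes from 0.01 to -0.13 in H8/NC and from 0.04 to 0.24 in H24/H8, and the share of up-regulated genes among all called from 69.2% to 55.7% and from 70.3% to 83.3%. With limma on log2(FPKM + 0.1) that share was 47.3% and 75.6%. Genes called over the whole table ranged from 343 to 1203 in H8/NC (1059 as reported), 855 to 1868 in H24/NC (1700) and 694 to 1868 in H24/H8 (1519) under alternatives that kept all libraries, lowest with limma on log2(FPKM + 1). With single replicates left out they ranged from 845 to 1244, 1132 to 2251 and 804 to 2091, highest without H8 replicate 3 in H8/NC and without H24 replicate 2 in the others. On CPM in place of FPKM, the same 6 members as on FPKM had H8 values wholly under NC. Without H24 replicate 3, H24/NC had 1132 called genes. Leaving PLIN4 out, added after the data were examined, moved the mean score of the 6 over H8 from 0.486 to 0.239. At these depths, values under 0.0396 to 0.0680 CPM, by library, could not be told from 0.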

Other observations

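Genes whose log2(FPKM + 0.1) was most like ADIPOQ or LEP over the 9 libraries were sought after the data had been examined, among 14711 genes, and are given as values only. Closest to ADIPOQ was CA3, a carbonic anhydrase of fat and slow muscle, with r = 0.988. CA3 measured 0.835, 2.06 and 2.28 FPKM in NC, 0.0115, 0 and 0 FPKM in H8, and 1.67, 0 and 0.0506 FPKM in H24. DGAT2 (0.977), TRARG1 (0.944) and THRSP (0.941) were also among the 20 closest. PLA1A, a phospholipase, had r = 0.937, with 0.843 to 1.22 FPKM in NC, 0.280 to 0.365 FPKM in H8, and 1.21, 0.528 and 0.642 FPKM in H24. In each of these 5 genes, H24 replicate 1 lay within the NC range and H24 replicates 2 and 3 lay under it. The 5 were picked from the 20 with values known, and ranking by likeness to ADIPOQ favours such a pattern. Some others of the 20 had H24 replicate 1 above NC. Among them were USP47 (11.6 against 10.4 to 11.0 FPKM) and JADE1 (6.81 against 5.09 to 6.08 FPKM).

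Closest to LEP were IL15 (r = 0.975), a lymphocyte growth factor, SCML4 (0.974), CH25H (0.969), the cholesterol 25-hydroxylase, ENSSSCG00000000657 (0.968) and TAP1 (0.964), a peptide transporter of antigen presentation. ZAP70, a T-cell kinase, followed at 0.959. IL15 measured 0.684, 0.802 and 1.18 FPKM in NC, 0.449, 0.516 and 0.630 FPKM in H8, and 2.78, 1.56 and 2.97 FPKM in H24. None of the 10 genes closest to LEP is on an adipocyte list used here.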
